A study of Homo sapiens with 4 samples.

Results

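Metallothionein-high embryonic stem cells were the 422 cells, 202 in hESC 1 and 220 in hESC 2, that gave the largest share of their RNA to 6 metallothionein genes. They were chosen by that measured share, among 1688 eligible barcodes of 13516 in the 2 stem cell samples and 19074 in the series. A barcode was eligible with at least 2000 UMIs (a UMI is a tag that lets each captured RNA molecule be counted once), at least 2% of its UMIs from the mitochondrial genome, and fewer than 5 of 8 mitotic genes detected (MKI67, TOP2A, CENPF, UBE2C, TPX2, CDK1, BIRC5 and NUSAP1). Within each sample, the cells above the 75th percentile of the share of UMIs in MT1E, MT1F, MT1G, MT1H, MT1X and MT2A formed the metallothionein-high set. The cells at or below the 25th percentile formed the metallothionein-low set of 260 and 375 cells. That percentile was 0 in both samples, so the metallothionein-low cells are the eligible cells in which no UMI of the 6 genes was counted.

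The cells belong to KhES1, a line of human embryonic stem cells, and were measured with 10x Genomics Chromium 3′ v3.1 libraries. The samples hESC 1 and hESC 2 were KhES1 cells grown on Matrigel in mTeSR-1, a feeder-free medium for pluripotent cells. The other 2 samples, blastoid 3 and blastoid 4, were blastoids, embryo-like structures, made from KhES1 by aggregation and culture in a hydrogel with iBlastoid medium. The labels name no genetic change between the groups, which differ in medium and culture format. For passaging and aggregation the stem cells were dissociated and briefly given the ROCK inhibitor Y27632. The labels do not say whether the samples of a group came from separate cultures, so p-values below speak for these samples only. In the fits with a sample block they rest mostly on counting error, as described with the first fit.

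Metallothioneins are small cysteine-rich proteins that bind zinc and copper and buffer the free metal in a cell. Their genes are known for fast induction: the zinc-sensing transcription factor MTF1 binds metal response elements in their promoters, and glucocorticoids, oxidants and low oxygen can also raise them. The exporter gene SLC30A1, which encodes the zinc transporter ZnT1, is another known target of MTF1.

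The 6 genes of the rule lie in 1 cluster on chromosome 16 of GRCh38, in the order MT2A, MT1E, MT1F, MT1G, MT1H and MT1X, between positions 56608584 and 56684196. MT1M lies in the same cluster, between MT1E and MT1F. The sequences of the 250 bases before the start of MT2A, MT1X, MT1H and SLC30A1 are shown because the core of the metal response element links the first 3 as a group and SLC30A1 served as the test of a further zinc-responsive gene. They are RefSeq sequences of GRCh38.p14, 5′ to 3′ on the strand of the gene, and capitals mark matches to TGCGCNC or TGCACNC on either strand.
MT2A, chr16:56608334-56608583, plus strand: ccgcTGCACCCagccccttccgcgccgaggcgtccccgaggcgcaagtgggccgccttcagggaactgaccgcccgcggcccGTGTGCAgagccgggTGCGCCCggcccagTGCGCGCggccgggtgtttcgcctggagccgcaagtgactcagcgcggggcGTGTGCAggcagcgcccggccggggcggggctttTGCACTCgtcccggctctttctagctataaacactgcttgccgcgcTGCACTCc
MT1X, chr16:56682220-56682469, plus strand: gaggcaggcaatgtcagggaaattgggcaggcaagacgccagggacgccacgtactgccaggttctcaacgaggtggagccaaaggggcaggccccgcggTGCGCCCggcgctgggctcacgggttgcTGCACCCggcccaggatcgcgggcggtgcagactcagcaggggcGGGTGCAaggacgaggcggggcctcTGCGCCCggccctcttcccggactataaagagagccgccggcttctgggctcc
MT1H, chr16:56669564-56669813, plus strand: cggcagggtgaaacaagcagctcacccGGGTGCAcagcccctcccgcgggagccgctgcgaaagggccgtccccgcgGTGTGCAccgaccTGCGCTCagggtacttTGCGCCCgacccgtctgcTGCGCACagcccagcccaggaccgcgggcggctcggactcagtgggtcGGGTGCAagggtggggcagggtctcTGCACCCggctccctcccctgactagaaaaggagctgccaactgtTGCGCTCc
SLC30A1, chr1:211579162-211579411, minus strand: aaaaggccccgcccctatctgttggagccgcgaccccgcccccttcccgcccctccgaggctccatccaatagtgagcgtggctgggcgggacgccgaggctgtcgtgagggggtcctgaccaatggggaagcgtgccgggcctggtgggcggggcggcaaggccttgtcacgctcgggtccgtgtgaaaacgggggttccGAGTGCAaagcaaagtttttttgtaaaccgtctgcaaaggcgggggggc
The search found 7 matches before MT2A, 4 before MT1X, 8 before MT1H and 1 before SLC30A1. Of 35116 RefSeq promoters of the same length, 24.8% held at least 1 match and 0.370% held 4 or more. A match is a run of letters and does not show that a factor was bound. MT1E, MT1F, MT1G and MT1M had no entry in the promoter table used.

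The 4 tables held between 14930662 and 18193164 UMIs. The stem cell tables shared 1317 barcode sequences, which were carried by 4 eligible cells of hESC 1 and 264 of hESC 2, and results without them are given below. Scrublet called 27 of 5440 stem cell barcodes as doublets (0.496%), under the 0.5% taken here as the least that a working caller would mark. The samples differed, with 27 of 2265 called in hESC 1 (1.19%) and 0 of 3175 in hESC 2. No called doublet was removed, and doublets may remain in both sets. The metallothionein-high and metallothionein-low cells carried the identity that the label gives: UMIs of 14 of 14 pluripotency markers were found in every set, with a summed level of 6151 and 6253 CPM (UMIs per 1000000 UMIs) in the high sets against 6499 and 6757 in the low sets. Trophectoderm or amnion markers summed to 18.5 to 28.2 CPM and mesoderm markers to 17.2 to 24.0, with GATA3, CDX2, HAND1, TBXT and EOMES at 0 in each set. Endoderm markers summed to 2.32 to 5.49, with SOX17, FOXA2, GATA4 and GATA6 at 0, and KDR was the only marker of endothelium or blood with a UMI.

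Metallothionein RNA was concentrated in few stem cells. Of the eligible cells, 32.1% in hESC 1 and 42.7% in hESC 2 had no UMI of the 6 genes, the median share was 0.0281% and 0.0191%, and the highest share was 3.94% and 7.36%. The metallothionein-high set held 83.6% and 87.9% of all metallothionein UMIs, and the top 41 and 44 cells held 48.3% and 53.9% of them. These values chose the cells and are a description.

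The limit was a share of 0.0864% in hESC 1 and 0.0657% in hESC 2. The cells just inside it had 0.0873% and 0.0660%, those just outside had 0.0864% and 0.0655%, and 82 cells of each sample lay within 25% of it. The limit thus lies within a run of closely spaced shares, as the ranked shares show. A metallothionein-high cell had a median of 10 (hESC 1) and 8 (hESC 2) UMIs of the 6 genes, with a minimum of 2 and a maximum of 246 and 292.

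**Figure D1:**
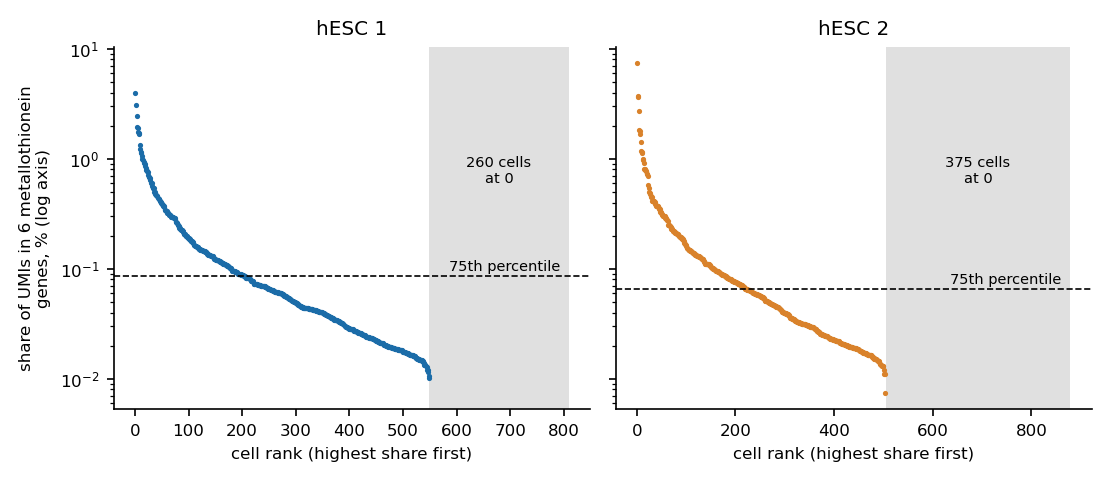
Share of each eligible cell's UMIs in the 6 metallothionein genes (log axis, %) against the cell's rank, for hESC 1 and hESC 2. The dashed line is the 75th percentile (0.0864% and 0.0657%) and grey marks the 260 and 375 cells at 0, and around that limit the shares run on without a step. The highest cell of hESC 2, at 7.36%, stands apart from the next, at 3.69%.

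Among the 6 genes, MT1X, MT2A and MT1G gave most of the signal. In the metallothionein-high cells of hESC 1 and hESC 2, MT1X stood at 1077 and 786 CPM, MT2A at 831 and 740, and MT1G at 771 and 747. MT1H stood at 407 and 442, MT1E at 340 and 307, and MT1F at 108 and 83.2. Both samples thus gave the same 3 genes the highest levels and MT1F the lowest, while hESC 1 had more MT1X. The order within a cell set was not the same across the range of shares, since MT1G and MT1H were a larger part of the metallothionein UMIs at high shares. In hESC 1, MT1G gave 9.20% of these UMIs in the second quartile, 16.3% in the third and 21.8% in the metallothionein-high set.

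**Figure D2:**
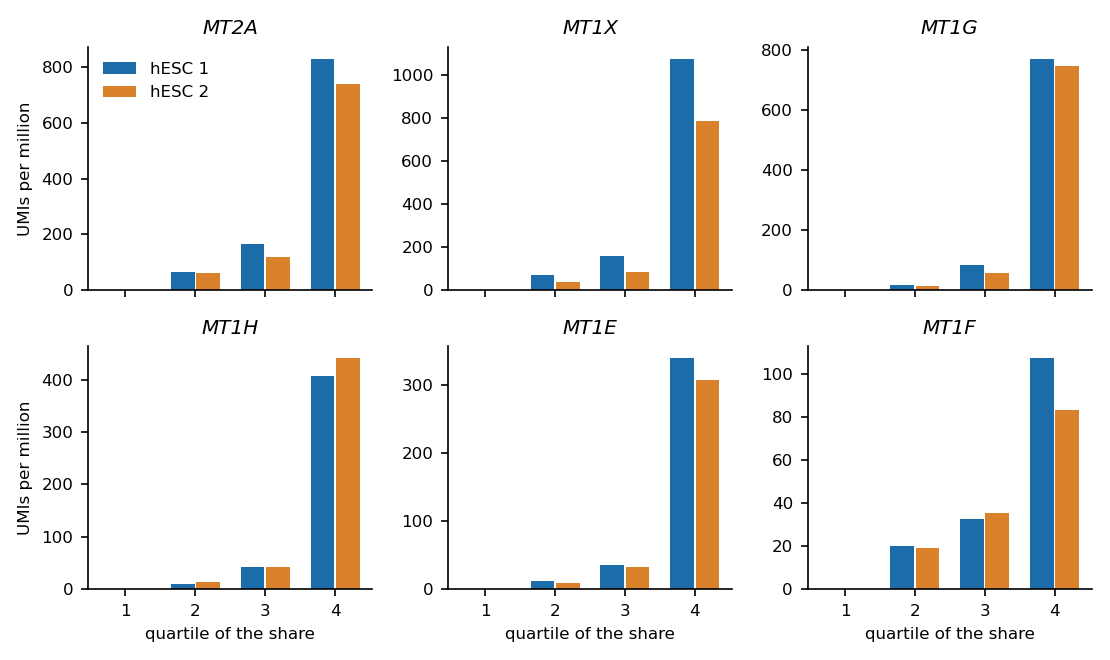
Level of each of the 6 metallothionein genes (CPM of the summed UMIs) in the 4 quartiles of the share, with 1 bar per sample. Quartile 1 is at 0 by the rule, and in quartile 4 MT1X reached 1077 and 786, MT2A 831 and 740, and MT1F 108 and 83.2.

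The 6 genes also moved together when the gene measured took no part in choosing the cells. With quartiles set by the other 5 genes, MT1G stood at 736 and 704 CPM in the top quartile of hESC 1 and hESC 2 and at 20.6 and 12.5 in the bottom quartile. MT1H, left out in the same way, stood at 380 and 423 against 6.76 and 6.89. MT1X stood at 884 and 638 against 105 and 58.2, and MT2A at 762 and 683 against 60.1 and 40.0. Each of these genes was higher in the top quartile of both samples. When the UMIs of each cell were divided at random into 2 equal parts, with 1 part choosing the quartiles and the other measured, the share of the 6 genes was 0.331% and 0.290% in the top quartile and 0.0172% and 0.0119% in the bottom quartile, against 0.353% and 0.311% in the top quartile as first chosen. Reads of these near-identical paralogs can be assigned to the wrong member, so the split among the genes is less certain than their sum.

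Of the metallothionein genes, 5 were among the most variable genes of the eligible cells. With each cell thinned to 2000 UMIs, MT1G had the largest variance relative to its mean of 7252 genes in hESC 1 and of 7758 in hESC 2, at 7.83 and 10.6, where the median gene had 1.00. MT1X was at rank 2 and 3, MT2A at 6 and 2, MT1H at 11 and 4 and MT1E at 13 and 5, while MT1F was at 73 and 64 (1.25 and 1.26). TAGLN, at rank 15 in hESC 1, and IGFBP2, at rank 12, also stood near the top, and both are described below. The ranks use the cells that the rule chose from and carry no test.

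Metallothionein-high and metallothionein-low cells were of similar depth. The median was 5106 and 4981 UMIs in the high sets and 4980 and 4751 in the low sets. The high cells had a lower median share of mitochondrial UMIs, 10.4% and 10.9% against 11.4% and 11.8%, and a similar mean number of detected mitotic genes, 2.57 and 2.62 against 2.68 and 2.77. With 2 samples an exact test cannot go below p = 0.5, so these values have no test of their own. The part of the mitochondrial share in the calls described next was not tested. With quartiles taken within 5 bins of total UMIs, 93 of those 118 genes were called again.

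To ask which other genes differed with the metallothionein share, UMIs were summed per sample and set, the 6 genes were left out, and the 4 sums were fitted with the edgeR quasi-likelihood test with the sample as a block. Of 9085 genes tested, 118 were called at a Benjamini-Hochberg adjusted p under 0.05 (1.3%), 73 higher (0.804%) and 45 lower (0.495%) in the metallothionein-high cells. An unadjusted p under 0.05 was reached by 952 of the 9085 genes, beside which such counts in the lists below should be read. With scaling by library size alone the balance was 47 higher and 49 lower of 96. All 118 differed in the same direction in both samples. For 109 the 2 high sums did not overlap the 2 low sums, which held for 34% of all genes tested. The calls came from these same sums, so both agreements are favoured by the call and support nothing. Most differences were small, with a median size of 0.41 on the log2 scale and 7 genes past 1. Of these 7, 5 genes (MT1M, LEFTY1, GDF3, SLC1A1 and PFKFB4) passed the filter on low counts only through the metallothionein-high sums. They could be tested only because they were high there, so their calls are given as counts of UMIs and support nothing.

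The calls rest on the block. With 4 sums and a sample term, 1 residual degree of freedom was left per gene and edgeR gave every gene the same spread, close to counting error. Without the block, 11 genes were called (0.121%: TAGLN, MT1M, PGK1, IGFBP2, LDHA, P4HA1, FAM162A, BNIP3, MDM2, MIR205HG and LEFTY1), and DESeq2 with the block called 12 (0.132%) when every gene was kept. Without the barcodes that the stem cell tables share, 80 genes were called, and 70 of them were among the 118.

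Genes of glycolysis and of the response to low oxygen were higher in metallothionein-high cells. Cells low in oxygen stabilise the transcription factor HIF1, which is known to raise glucose uptake, the enzymes that turn glucose into lactate, and regulators of mitochondria. Of 23 tested genes in a list of such genes, 11 rose and 0 fell, where 0.804% of all genes tested rose. A positive difference was found in 21, and the median log2 fold change was 0.43, where it was 0.01 over all genes tested. The list was chosen with earlier results of these data known. The 11 genes were TPI1, GAPDH, PGK1, PGAM1, ENO1, PKM, LDHA, SLC2A1, BNIP3 and P4HA1, beside PFKFB4. PFKFB4 was tested only through its high sums, so its part in this count supports nothing. Without the shared barcodes 10 of the 23 rose, and without the block 4 did (PGK1, LDHA, BNIP3 and P4HA1), where 0.0991% of all genes rose. DESeq2 with every gene kept called 4 (PGK1, ENO1, LDHA and BNIP3), where 0.0771% of all genes were higher. With cells thinned to 2000 UMIs 7 of 21 rose, with quartiles by MT1G and MT1H alone 5 of 24, and with quartiles by MT2A alone 2 of 22 (PGK1 and LDHA).

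PGK1 encodes phosphoglycerate kinase, the first glycolytic enzyme that makes ATP. After TMM scaling it stood at 323 CPM in the low cells and 666 in the high cells of hESC 1, and at 322 and 527 in hESC 2. Both high values lay above both low values, and the log2 fold change was 0.87 ± 0.07 (SE, edgeR, adjusted p = 2.1e-32). LDHA, which encodes the lactate dehydrogenase subunit favoured in low oxygen, went from 447 to 820 in hESC 1 and from 404 to 670 in hESC 2. Its log2 fold change was 0.80 ± 0.06 (adjusted p = 1.24e-33). The 2 enzymes thus differed by similar amounts in both samples.

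BNIP3 encodes a mitochondrial outer membrane protein that promotes the removal of mitochondria. Its level was 320 in the low and 618 in the high cells of hESC 1, and 224 and 378 in hESC 2, a log2 fold change of 0.86 ± 0.08 (adjusted p = 1.79e-26). P4HA1, a subunit of the enzyme that hydroxylates collagen prolines, had the largest rise of the list among genes with a mean log2 level of at least 5. It went from 56.1 to 122 and from 53.3 to 98.1 (0.99 ± 0.15, adjusted p = 7.11e-09). FAM162A, a mitochondrial protein gene known as a HIF1 target but not in the list, went from 162 to 294 and from 156 to 244 (0.75 ± 0.09). In these genes, too, no low sum reached a high sum.

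The remaining glycolytic enzymes rose less. The log2 fold change was 0.54 ± 0.08 for PKM, 0.49 ± 0.06 for TPI1, 0.48 ± 0.08 for PGAM1, 0.43 ± 0.05 for ENO1 and 0.24 ± 0.04 for GAPDH. SLC2A1, the glucose transporter GLUT1, went from 48.0 to 66.4 and from 47.9 to 82.6 (0.65 ± 0.17, adjusted p = 0.0133). PFKFB4, a regulator of glycolytic flux, had 2 and 3 UMIs in the low cells and 10 in the high cells of each sample, and was tested only through the latter. Among members that were not called, SLC2A3 (GLUT3) had 0.15 ± 0.09, VEGFA 0.36 ± 0.26, PDK1 -0.08 ± 0.23 and ADM -0.28 ± 0.24. The members therefore did not differ by one common amount, and the secreted and regulatory members VEGFA, ADM and PDK1 were not called.

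The promoters of PGK1, BNIP3, P4HA1 and FAM162A are shown because these genes of the response to low oxygen were called with and without the block and had 1 entry each in the promoter table, which LDHA had not. Capitals mark matches to ACGTG or GCGTG, the core of the hypoxia response element, on either strand, in the 250 bases before the start in GRCh38.p14 (RefSeq).
PGK1, chrX:78103998-78104247, plus strand: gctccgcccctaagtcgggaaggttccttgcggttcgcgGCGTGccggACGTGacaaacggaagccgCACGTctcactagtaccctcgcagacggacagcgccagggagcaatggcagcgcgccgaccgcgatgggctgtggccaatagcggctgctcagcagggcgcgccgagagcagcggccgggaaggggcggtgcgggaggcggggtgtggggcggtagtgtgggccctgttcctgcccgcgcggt
BNIP3, chr10:131981924-131982173, minus strand: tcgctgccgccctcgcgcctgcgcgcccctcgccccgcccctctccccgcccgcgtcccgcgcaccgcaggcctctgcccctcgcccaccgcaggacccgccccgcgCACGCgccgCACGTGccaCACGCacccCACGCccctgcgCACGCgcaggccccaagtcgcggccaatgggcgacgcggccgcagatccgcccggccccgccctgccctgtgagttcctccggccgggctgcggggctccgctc
P4HA1, chr10:73096867-73097116, minus strand: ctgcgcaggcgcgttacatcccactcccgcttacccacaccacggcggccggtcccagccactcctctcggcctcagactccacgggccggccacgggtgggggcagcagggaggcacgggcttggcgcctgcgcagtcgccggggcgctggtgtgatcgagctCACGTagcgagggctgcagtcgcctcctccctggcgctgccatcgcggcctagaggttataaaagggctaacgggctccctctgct
FAM162A, chr3:122383932-122384181, plus strand: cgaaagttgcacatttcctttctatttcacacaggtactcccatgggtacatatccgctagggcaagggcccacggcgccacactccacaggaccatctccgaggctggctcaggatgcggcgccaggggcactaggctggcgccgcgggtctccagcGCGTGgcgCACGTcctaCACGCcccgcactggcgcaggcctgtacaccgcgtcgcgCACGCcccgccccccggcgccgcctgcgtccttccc
PGK1 held 3 matches and BNIP3 held 6, of which a pair overlaps because CACGTG reads ACGTG on both strands. The core was found at least once in 43.2% of the 35116 promoters and 3 or more times in 7.76%. FAM162A held 4 and P4HA1 1. Of other genes of the list, GAPDH and ENO1 held 2 each, PFKFB4 1, and PGAM1, PKM and SLC2A1 none in this window.

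**Figure D3:**
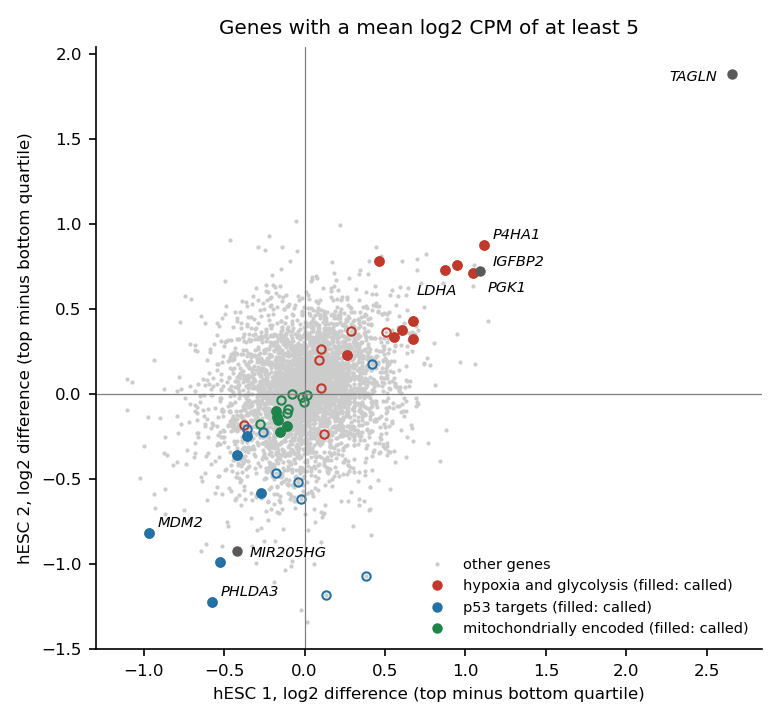
Difference between metallothionein-high and metallothionein-low cells (log2 of CPM plus 0.5) in hESC 1 (x) and hESC 2 (y) for tested genes with a mean log2 level of at least 5. Called genes of the hypoxia and glycolysis list (filled red) lie above 0 on both axes, and called p53 targets (filled blue) and mitochondrially encoded genes (filled green) below 0 on both. The axes show the sums that gave the calls, so the agreement of called genes between samples supports nothing.

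TAGLN and IGFBP2 also rose. TAGLN encodes transgelin, an actin-binding protein of contractile cells. It went from 12 to 78.3 CPM in hESC 1 and from 22.8 to 85.4 in hESC 2. This was the largest rise among genes with a mean log2 level of at least 5 (2.17 ± 0.21, adjusted p = 2.51e-22). Its RNA was unevenly spread, with 79 UMIs in 27 of 202 metallothionein-high cells of hESC 1 and 94 in 48 of 220 of hESC 2, and up to 12 and 9 in 1 cell. Of the mesoderm list, 0 of 5 tested members were called by edgeR, 1 had an unadjusted p under 0.05 and 0 were called by DESeq2. Over all genes tested 1.3% were called, so 0 calls of 5 lie near that share. VIM had the smallest adjusted p of the list (0.0557, edgeR).

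IGFBP2, which encodes a secreted protein that binds insulin-like growth factors, went from 508 to 1084 in hESC 1 and from 436 to 721 in hESC 2 (0.91 ± 0.06, adjusted p = 4.31e-49). Other genes among the 12 with the largest rises were VSNL1 (a neuronal calcium sensor, 0.82 ± 0.19), RGS10 (a regulator of G protein signalling, 0.80 ± 0.23), WDR54 (0.78 ± 0.19) and MTFP1 (a mitochondrial fission protein, 0.72 ± 0.21). CREBBP, which encodes a histone acetyltransferase that acts as a coactivator for many transcription factors, went from 18.4 to 38.7 and from 29.9 to 50.9 (0.87 ± 0.23, adjusted p = 0.0171). Its adjusted p was 0.445 without the block.

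The genes tested only through their high sums had few UMIs. MT1M, the metallothionein gene of the cluster that the rule left out, had 1 UMI in the low cells of each sample and 18 and 15 in the high cells, with the same uncertainty of assignment among paralogs. LEFTY1, a secreted inhibitor and target of NODAL signalling, had 5 and 3 UMIs in the low cells and 13 and 17 in the high cells. GDF3, a ligand of the same pathway, had 2 and 13 against 18 and 15. The list of NODAL and activin targets had no other call among its 7 tested members. SLC1A1, a glutamate transporter named after its values were seen, had 3 and 9 against 14 and 13. CXCL5, a chemokine also named after its values were seen, had 38 and 31 UMIs in the low and 11 and 8 in the high cells (-1.36 ± 0.37, adjusted p = 0.0235).

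Targets of p53 were lower in metallothionein-high cells. The transcription factor p53 is expressed in pluripotent stem cells, and its targets are known to include its own inhibitor and genes of cell cycle arrest and apoptosis. Of 16 tested targets, 6 fell and 0 rose, 15 had a negative difference and the median log2 fold change was -0.41. Over all genes tested, 0.495% fell. This list, too, was chosen with earlier results known. The 6 were MDM2, PHLDA3, FDXR, CCNG1, RPS27L and BAX. Without the shared barcodes 4 fell (MDM2, RPS27L, PHLDA3 and CCNG1) and without the block MDM2 did, where 0.022% of all genes fell. DESeq2 called 0 of the 16 (0.055% of all genes were lower), with 4 at an unadjusted p under 0.05. With cells thinned to 2000 UMIs edgeR called 0 of 16 (3 unadjusted), and with quartiles by MT2A alone 0 of 17 (8 unadjusted).

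MDM2, the ubiquitin ligase that degrades p53, went from 109 to 55.5 CPM in hESC 1 and from 117 to 66.3 in hESC 2 (-0.89 ± 0.14, adjusted p = 3.01e-07). PHLDA3, an inhibitor of AKT, went from 80.1 to 53.5 and from 75 to 31.8 (-0.89 ± 0.17, adjusted p = 9.5e-05). RPS27L, a ribosomal protein paralog, was the most abundant of the 6 and went from 772 to 577 and from 657 to 512 (-0.39 ± 0.06, adjusted p = 8.35e-08). FDXR, which encodes ferredoxin reductase of mitochondria, had -0.78 ± 0.23, CCNG1, which encodes cyclin G1, -0.44 ± 0.08, and BAX, which permeabilises mitochondria in apoptosis, -0.31 ± 0.08. In each of the 6, both high sums were below the low sum of the same sample.

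The cell cycle inhibitor gene CDKN1A, the best-known target, was not called and its samples disagreed. It went from 28.0 to 36.7 in hESC 1 and from 56.0 to 26.3 in hESC 2 (-0.48 ± 0.22, adjusted p = 0.391). ZMAT3 behaved alike, from 35.2 to 38.7 and from 62.5 to 27.2 (-0.62 ± 0.21, adjusted p = 0.124).

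Other falls included MIR205HG, the host transcript of miR-205, from 324 to 242 and from 388 to 204 (-0.69 ± 0.08, adjusted p = 3.71e-13). KDR, the VEGF receptor that primed stem cells also express, went from 75.3 to 44.6 and from 61.4 to 38.1 (-0.72 ± 0.18). PLPP2, a lipid phosphatase, fell by 0.79 on the log2 scale, IDO1, a tryptophan-degrading enzyme, by 0.76, PTPN4, a tyrosine phosphatase, by 0.73, H1F0, a linker histone, by 0.72, BBS9, a part of the BBSome, by 0.68, DDX42, an RNA helicase, by 0.55, and ZFP36L2, an RNA-binding protein, by 0.52. Of these and KDR, none was called by edgeR without the block, while MIR205HG was (adjusted p = 0.0115).

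RNAs encoded in the mitochondrial genome were lower by a small amount. Of 13 tested, 5 fell (MT-ND1, MT-CYB, MT-CO3, MT-ND3 and MT-ATP6), 0 rose, and the median was -0.11. Over all genes tested, 0.495% fell. MT-ND1, a subunit of complex I, went from 5334 to 4794 CPM in hESC 1 and from 5381 to 4610 in hESC 2 (-0.19 ± 0.03, adjusted p = 1.63e-05). The call does not cover the whole genome of the mitochondrion: MT-CO1 had -0.03 ± 0.03 and MT-ND4 -0.02 ± 0.03. None of the 13 was called without the block by edgeR. DESeq2 with the block and every gene kept called 5, where 0.055% of all genes were lower. The edgeR fit called 0 with cells of at least 4000 UMIs, 0 with quartiles by MT2A alone and 0 with MT1G and MT1H alone. At an unadjusted p under 0.05 these settings had 4, 5 and 1. Nuclear genes of oxidative phosphorylation had 0 of 36 called, where 1.3% of all genes tested were called, so 0 calls lie near that share. Of the 36, 6 had an unadjusted p under 0.05, 0 were called by DESeq2 and the median was 0.09. A positive difference was found in 30 of the 36, where 4734 of 9085 genes tested had one. The rule itself asks for a minimum of mitochondrial UMIs, which 10 and 24 deep barcodes did not reach.

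No gene of the lists of zinc, copper and iron handling was called, where 1.3% of all genes tested were called. In lists of 5 to 12 tested genes, 0 calls lie near that share. SLC30A1 stood at 17.6 in the low and 15.9 in the high cells of hESC 1 and at 12 and 16.3 in hESC 2, so that the samples went opposite ways (0.15 ± 0.35, adjusted p = 0.955). It had 16 to 22 UMIs per sum, which leaves a wide error. In the lists, 0 of 5 tested zinc exporters, 0 of 11 zinc importers and 0 of 12 genes of copper and iron handling were called by edgeR. Of these, 0, 0 and 2 had an unadjusted p under 0.05, and DESeq2 called none. The medians were -0.04, -0.04 and 0.08. Outside these lists and named after their values were seen, FLVCR1, a haem exporter, had -0.47 ± 0.12 (adjusted p = 0.0171) and ISCU, a scaffold for iron-sulphur clusters, had -0.41 ± 0.12 (adjusted p = 0.0484).

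Lists of stress and signal response genes gave few calls, where 1.3% of all genes tested were called. In lists of 4 to 15 genes, 0 calls lie near that share, and what raised the metallothioneins was not tested. Of 15 tested heat shock genes 0 were called (3 at an unadjusted p under 0.05), of 4 glucocorticoid targets 0 (0 unadjusted), and of 10 immediate early genes 0 (2 unadjusted), and DESeq2 called none of them. A positive difference was found in 12 of the 15 heat shock genes, 3 of the 4 glucocorticoid targets and 7 of the 10 immediate early genes. Over all genes tested, 4734 of 9085 had one. The median of the heat shock genes was 0.11, where it was 0.01 over all genes. HSP90AA1, the heat shock gene with the smallest adjusted p (0.173), had 0.11 ± 0.04. TXN, which encodes thioredoxin, was the single call among 16 targets of the oxidant sensor NRF2, from 617 to 749 and from 583 to 652 (0.22 ± 0.06, adjusted p = 0.0289). SLC3A2, an amino acid transporter chain, was the single call among 23 genes of amino acid and ER stress and was lower (-0.37 ± 0.10, adjusted p = 0.0171).

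Pluripotency genes held calls in both directions. Of 29 tested genes of primed pluripotency, 2 were higher (DUSP6 and GDF3) and 3 lower (CD24, TERF1 and ZIC2), where 1.3% of all genes were called, and the median was -0.05. GDF3 was tested only through its high sums, so its part in this count supports nothing. CD24, a surface protein, went from 1580 to 1367 and from 1666 to 1353 (-0.26 ± 0.04), and TERF1, a telomere-binding protein, fell by 0.20 on the log2 scale. DUSP6, a phosphatase induced by ERK signalling, went from 60.9 to 98.2 and from 113 to 144 (0.46 ± 0.13) and was the single call among 14 genes of the FGF and ERK list. Of the genes of naive pluripotency (3 tested), trophectoderm and amnion (6), neuroectoderm (3), BMP targets (6) and WNT targets (2), none was called by edgeR or DESeq2, and 0, 2, 1, 2 and 0 had an unadjusted p under 0.05. In lists this short, 0 calls lie near the 1.3% of all genes.

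No gene of the cell cycle lists was called, where 1.3% of all genes tested were called. In lists of 29 and 34 genes, 0 calls lie near that share. Of 29 S phase genes and 34 G2 and M phase genes outside the rule, 0 were called by edgeR or DESeq2. An unadjusted p under 0.05 was found for 3 and 4, where 952 of all 9085 genes had one. A positive difference was found in 20 and 17, and the medians were 0.12 and 0.01, where the median was 0.01 over all genes. Of 20 cholesterol synthesis genes 0 were called by either tool, 7 had an unadjusted p under 0.05, and the median was 0.14. Of 79 ribosomal protein genes, RPL22L1 (0.42 ± 0.08) and RPL10 (0.13 ± 0.04) were higher, and RPS27L, counted above as a p53 target, was lower. Among the 79, 70 had a positive difference, where 4734 of all 9085 genes had one. Their median was 0.05, and 19 had an unadjusted p under 0.05. BAX was the single call among 9 genes of apoptosis and cell damage.

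Several of the differences extended over the range of the share. The levels were compared over the first 3 quartiles and the metallothionein-high cells below and above their own median share. LDHA stood at 447, 524, 595, 688 and 904 CPM in hESC 1 and at 403, 295, 515, 559 and 745 in hESC 2. TAGLN stood at 12, 15.9, 26.8, 52.9 and 100.4 in hESC 1 and at 22.8, 13.5, 43.6, 47.6 and 119 in hESC 2. MIR205HG stood at 324, 329, 245, 257 and 207 in hESC 1 and at 387, 350, 279, 254 and 143 in hESC 2. The fall of MDM2 did not deepen at the highest shares. It stood at 109, 81.8, 89.6, 42.0 and 66.3 in hESC 1 and at 117, 99.2, 79.1, 61.7 and 67.3 in hESC 2. PHLDA3 and FDXR were also higher above than below the median share of the metallothionein-high cells in both samples. RPS27L, CCNG1 and BAX were not so in both samples. The second quartile of hESC 2 held 65 cells because of the many cells at 0, and it was below the first for LDHA, PGK1, BNIP3, IGFBP2 and TAGLN. A fit of the trend over the 4 quartiles called 80 genes, 75 of them among the 118. This fit includes the first and last quartile sums that gave the 118 calls, so the overlap supports nothing about the quartiles between.

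**Figure D4:**
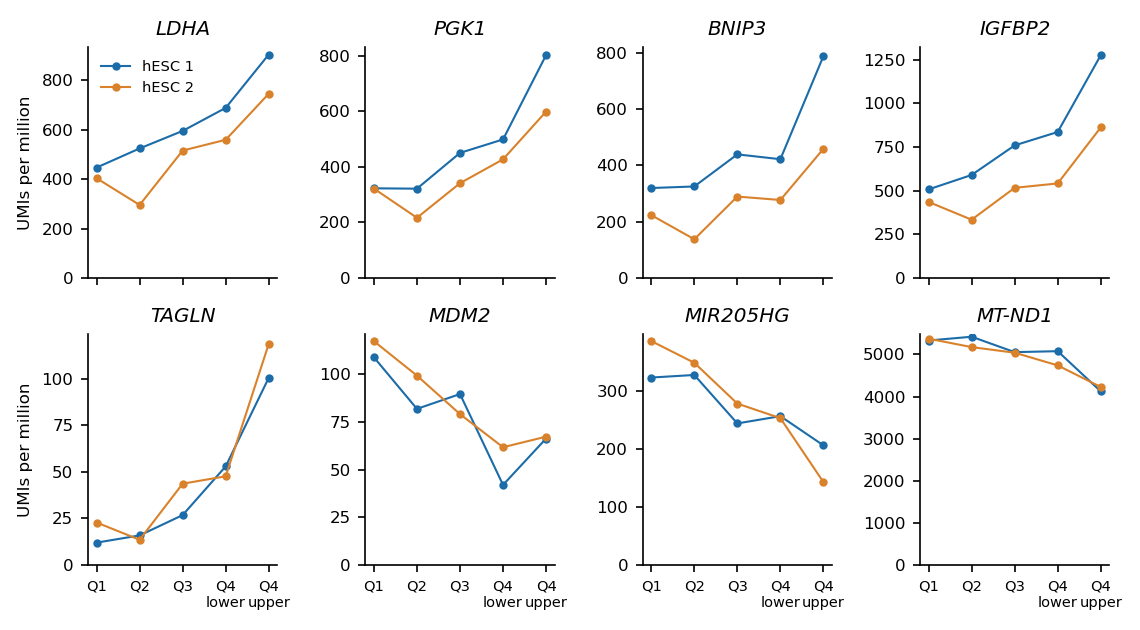
Levels of 8 genes (TMM-scaled CPM) in hESC 1 and hESC 2 over quartiles Q1 to Q3 of the metallothionein share and, in Q4, the cells below (Q4 lower) and above (Q4 upper) the median share, with 1 point per sample and no error bars because each point is 1 sum. LDHA reached 904 and 745 and TAGLN 100.4 and 119 in Q4 upper, and MIR205HG and MT-ND1 were lowest there. MDM2 was lowest in Q4 lower in both samples.

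The same split was then made in the 2310 stem cells with 5 or more mitotic genes, which the rule had not used. A similar part of these cells lay above the limit of their sample: 239 of 1011 (23.6%, 95% exact interval 21.1 to 26.4%) in hESC 1 and 317 of 1299 (24.4%, 22.1 to 26.8%) in hESC 2, at median depths of 8127 and 7304 UMIs. These intervals cover counting error only. Between their own top and bottom quartiles, edgeR called 252 of 11207 genes (2.25%), 1.27% higher and 0.982% lower. Of the 118 genes called before, 114 had the same sign and 77 were also called in that direction. These cells come from the same 2 libraries, so they are other cells but not other samples.

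In the mitotic cells TAGLN had 2.39 ± 0.16, IGFBP2 0.74 ± 0.05, LDHA 0.72 ± 0.05 and BNIP3 0.83 ± 0.06. Of the hypoxia and glycolysis list 10 of 24 rose and 0 fell, and of the p53 targets 11 of 17 fell and 0 rose. CDKN1A fell by 1.37 on the log2 scale in these cells (adjusted p = 1.63e-08), and 8 of 13 mitochondrially encoded genes fell. CREBBP had -0.16 (adjusted p = 0.736), against the rise in the other cells. Of 29 S phase genes 6 rose. The difference between the 2 sets of cells was tested as an interaction: edgeR called 0 of 11200 genes (0%), with 523 at an unadjusted p under 0.05 and a smallest adjusted p of 0.807, and no other tool was run on it.

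Blastoid cells carried less metallothionein RNA. Of eligible cells by the same criteria, 42 of 1139 in blastoid 3 (3.69%, 95% exact interval 2.67 to 4.95%) and 24 of 1016 in blastoid 4 (2.36%, 1.52 to 3.49%) lay above the limit of hESC 1. Over these cells the 6 genes summed to 138 and 129 CPM, against 1047 and 878 in the eligible stem cells. MT1G stood at 1.24 and 4.62 CPM against 216 and 201, and MT1H at 0.619 and 0.851 against 113 and 122. MT2A was less far apart, at 65.7 and 52.9 against 261 and 219. Group, medium and culture format differ together, so these differences cannot be assigned to one of them.

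In blastoid cells, TAGLN was lower at high metallothionein shares. Splitting the eligible blastoid cells as before compared 285 and 254 high with 764 and 594 low cells, and edgeR called 372 of 12566 genes (2.96%), 1.56% higher and 1.4% lower. Blastoid cells are a mix of cell types and their high cells begin at a share of 0.0170% and 0.0157%, so the contrast also compares cell types. TAGLN went from 41.6 to 22.5 CPM in blastoid 3 and from 93.7 to 40.9 in blastoid 4 (-1.08 ± 0.16, adjusted p = 0.00781). LDHA had 0.04 ± 0.07 and PGK1 0.10 ± 0.08, and of 26 tested genes of the hypoxia and glycolysis list 0 rose and 4 fell (PFKP, GAPDH, SLC2A1 and SLC2A3). Of the 42 genes named here by rule and called in stem cells, 15 differed between blastoid and stem cells in an interaction test that called 100 of 11894 genes (0.841%). These 42 genes were chosen for their difference in stem cells, so that a smaller difference elsewhere is favoured by the choice, and the count supports nothing. Within blastoid cells 4 of the 42 were called in the opposite direction (TAGLN, KDR, DUSP6 and TERF1) and 2 in the same direction (CD24 and SLC3A2).

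**Figure D5:**
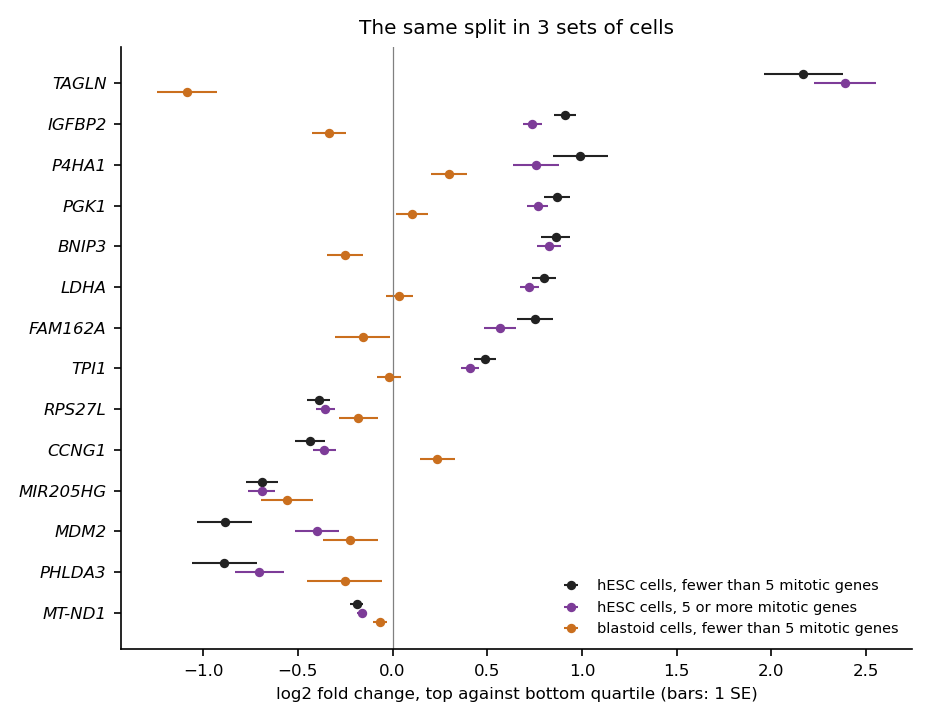
Log2 fold change between the top and bottom quartile of the metallothionein share for 14 genes, with 1 SE as bars, in stem cells with fewer than 5 mitotic genes (black), stem cells with 5 or more (purple) and blastoid cells with fewer than 5 (orange). TAGLN lies at 2.17, 2.39 and -1.08, LDHA at 0.80, 0.72 and 0.04, and MIR205HG below 0 in the 3 sets.

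At the other end of the quality range, 10 and 24 stem cell barcodes with at least 2000 UMIs and under 2% mitochondrial UMIs were left out by the rule. Of these, 3 and 8 lay above the limit of their sample, and the 6 genes summed to 5148 and 1593 CPM. With so few barcodes the exact intervals of the shares, 6.67 to 65.2% and 15.6 to 55.3%, span the share found in the eligible cells.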

How the data were processed

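Single-cell RNA was measured in 2 stem cell and 2 blastoid samples of KhES1. Each sample has 1 table of unnormalized UMI counts, genes by barcodes, which the authors deposited and made with Cell Ranger on GRCh38 per the submitters' processing notes. Barcodes hold 201 to 4994 genes and at most 20.0% mitochondrial UMIs. Because cells are no replicates, counts were added up over each sample and quartile (1065131 to 1821092 UMIs per sum) without the 6 genes of the rule. Sums were fitted with edgeR 4.0.16 (TMM, filterByExpr, quasi-likelihood test, sample as a block because both sums of a sample come from 1 library, Benjamini-Hochberg adjustment over all genes tested, called under 0.05). The SE is the size of the log2 fold change divided by the square root of F. DESeq2 1.42.0 was an alternative. Levels of tested genes are TMM-scaled CPM and those of the 6 genes and of markers are unscaled. Counting intervals are exact (Clopper-Pearson).

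Named genes were the 6 genes and SLC30A1, the 12 largest rises and falls among genes called with a mean log2 level of at least 5 and the same sign in both samples, and up to 4 genes per list (28 lists) with the smallest adjusted p. The members and lists were chosen with earlier results of these data known. The fit was tested on simulated counts. Promoters came from RefSeq (GRCh38.p14). The titles of the blastoid samples carry day 0 and groups were taken from the descriptions. No barcode that met the rule was left out.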

Additional observations from a re-analysis of the deposited data

Results flagged for a closer look

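The difference between metallothionein-high and metallothionein-low cells was not the same in blastoid and stem cells for 15 of the 42 called genes named by rule, by the interaction term of the edgeR fit over 8 sums. The values are the log2 fold change in blastoid cells minus that in stem cells. Genes that rose in stem cells had TAGLN -3.27, IGFBP2 -1.25, BNIP3 -1.11, LDHA -0.76, PGK1 -0.77, DUSP6 -1.27, TPI1 -0.51, FAM162A -0.91, RGS10 -1.14, P4HA1 -0.69 and TXN -0.39. Genes that fell in stem cells had TERF1 0.85, KDR 1.45, CCNG1 0.67 and ZFP36L2 0.80. The adjusted p ranged from 1.1e-12 (TAGLN) to 0.0472 (TXN), and this test was chosen after seeing the data. TAGLN, KDR, DUSP6 and TERF1 had a call of the opposite direction within blastoid cells (-1.08, 0.73, -0.79 and 0.66), and CD24 (-0.47) and SLC3A2 (-0.54) had one of the same direction. The 42 genes were chosen for their difference in stem cells, which favours a smaller one in blastoid cells. The blastoid contrast holds several cell types and shares that begin at 0.0170% and 0.0157%, and the part of either in the difference was not tested.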

How the results depend on the processing

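The number of called genes, 118, changed with the processing. It was 11 with no replicate block, 14 with DESeq2 (adjusted p for 1159 genes) and 12 with DESeq2 without independent filtering, 57 with no filter on low counts, 42 with a log2 fold change past 0.5 in size, 23 with cells thinned to 2000 UMIs, 8 with quartiles by MT2A alone and 7 with cells that had 0 of 8 mitotic genes, where 590 genes could be tested. Among alternatives chosen after seeing the data, it was 66 with quartiles by MT1G and MT1H alone, 77 with cells of at least 4000 UMIs and 252 in cells with 5 or more mitotic genes. Under the other alternatives for this count (library size only, trend, upper against lower part of the range, bins of total UMIs, non-mitochondrial share, called doublets or shared barcodes left out, ties at 0 broken at random, top 5% of cells left out, robust spread) it was 80 to 118.

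The block is by design, since the high and low sums of a sample come from 1 library. Without it 118 of the 118 genes kept their direction. That fit used the same sums that gave the calls, so the kept direction supports nothing. Of the 42 called genes named by rule, 31 lost their call with no replicate block, 36 with MT2A alone and 27 after thinning. CREBBP reversed to -0.16 in mitotic cells, and the log2 fold change of TERF1 (0.058) and the log2 fold change of RPL10 (-0.074) reversed in cells with 0 of 8 mitotic genes. The cause was not tested. With the UMIs of each cell split in 2 parts, the mean share of the 6 genes in the bottom quartile moved from 0 to 0.0146%. Without hESC replicate 1 or 2, that share was 0 in both cases and the top quartile had 0.311 to 0.353%. Leaving out a sample leaves no residual degrees of freedom, so the count of calls has no such value. Depth limits genes at the level of SLC30A1, with 16 to 22 UMIs per sum.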

Other observations

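Called genes outside the rule for named genes, described here after their values were seen, included transcripts of other kinds. MIR302CHG, the host transcript of the miR-302 cluster of pluripotent cells, fell by 0.37 on the log2 scale (SE 0.05) in metallothionein-high cells and by 0.34 in the mitotic cells. RRM2B, a p53-induced ribonucleotide reductase subunit that was not in the p53 list, fell by 0.51 and by 0.57. TMSB10 (thymosin beta 10) had 0.37 and 0.39, CALD1 (caldesmon) 0.35 and 0.34, MYL6 (a myosin light chain) 0.24 and 0.20, and ACTG1 (gamma actin) 0.23 and 0.12. MIF, a secreted cytokine known to respond to low oxygen, had 0.26 and 0.17, and GAL, the neuropeptide galanin, 0.47 and 0.39. SLC1A1, tested in the cells of the rule only through its high sums, had -0.16 in the mitotic cells, where its adjusted p was 0.93.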
